A study of Mus musculus with 9 samples.

Results

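The genes described here are 10 components of the ciliary zonule and its microfibrils, chosen by symbol from a table of 17527 genes: Fbn1, Fbn2, Ltbp1, Ltbp2, Efemp1, Mfap2, Mfap5, Adamtsl4, Adamts10 and Emilin1. All 10 were in the table, and 9 passed the filter on low counts that left 13711 genes for testing, the exception being Mfap5. The material was mouse anterior lens capsule, a basement membrane that carries the lens epithelium, sequenced as 9 RNA libraries. The labels name 3 groups of 3 libraries: young controls, aged controls, and aged animals with epigallocatechin gallate (EGCG), a green tea catechin. The sources used here do not give strain, sex, ages, dose, route or duration, nor what the controls received. Whether replicate libraries stand for different animals is not said either, so p-values reflect only the spread among the libraries, which may be technical.

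The zonule is the ring of fibres that suspends the lens from the ciliary body, and its fibres are bundles of fibrillin microfibrils that insert into the lens capsule near the equator. The fibrillin of the zonule is made mainly by the non-pigmented ciliary epithelium. Fibrillin-1 is the main structural protein, fibrillin-2 is prominent in development, and MAGP-1 (Mfap2), MAGP-2 (Mfap5), the latent TGF-β binding proteins (Ltbp1, Ltbp2), fibulin-3 (Efemp1) and EMILIN-1 associate with microfibrils or elastic fibres. ADAMTSL4 and ADAMTS10 bind fibrillin-1 and take part in microfibril assembly. Mutations in human FBN1, LTBP2, ADAMTSL4 or ADAMTS10 cause displacement of the lens.

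Promoter sequence is shown for Efemp1, Ltbp2 and Ltbp1, because these 3 members were higher in aged than in young capsule and lower again with EGCG. RefSeq windows on build GRCm38.p6 matched 7 of the 10 members by symbol, with 9 windows in all. Fbn2, Mfap5 and Adamts10 had no entry. The stretches printed run 5′ to 3′ on the strand of the gene and hold 199, 183 and 201 of the 250 bases before each start, the remainder being annotated as exon or as part of the gene. Capitals mark matches, on either strand, to any of 6 motifs searched in the 250 bases before each start: the GC box GGGCGG, the CCAAT box CCAAT, the TATA box TATAAA, the SMAD box CAGAC, the AP-1 site TGANTCA and the TEAD site CATTCC.
Efemp1, chr11:28852955-28853153, plus strand: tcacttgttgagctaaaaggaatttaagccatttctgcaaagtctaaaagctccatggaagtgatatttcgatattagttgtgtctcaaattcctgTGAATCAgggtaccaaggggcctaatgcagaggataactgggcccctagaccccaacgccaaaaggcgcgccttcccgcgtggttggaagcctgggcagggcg
Ltbp2, chr12:84876559-84876741, minus strand: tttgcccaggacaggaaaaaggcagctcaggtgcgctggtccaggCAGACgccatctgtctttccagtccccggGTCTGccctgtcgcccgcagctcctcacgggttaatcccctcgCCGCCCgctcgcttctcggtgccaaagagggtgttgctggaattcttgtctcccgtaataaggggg
Ltbp1, chr17:75005279-75005479, plus strand: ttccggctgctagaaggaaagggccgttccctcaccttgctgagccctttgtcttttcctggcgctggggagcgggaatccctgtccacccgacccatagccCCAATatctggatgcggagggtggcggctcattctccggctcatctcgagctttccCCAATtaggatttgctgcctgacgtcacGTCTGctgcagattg

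The Efemp1 stretch holds 1 AP-1 match, the Ltbp2 stretch 2 SMAD boxes and 1 GC box, and the Ltbp1 stretch, from the upstream of its 2 windows, 2 CCAAT boxes and 1 SMAD box. The full 250 bases hold in addition 1 GC box for Efemp1, a further GC box for Ltbp2 and a further CCAAT box for Ltbp1. No motif of the 6 was in all 3 windows: Efemp1 and Ltbp2 had the GC box in common, and Ltbp1 and Ltbp2 the SMAD box. Over the 9 member windows the SMAD box was found in 5, against 42.2% of all 32851 promoter windows, and the GC box in 5, against 32.7%. The AP-1 site was found in 1 (6.75% of all windows), the TEAD site in 1 (12.6%), the CCAAT box in 2 (33.8%) and the TATA box in 0 (12.4%). A match is a string of letters in the reference and not evidence of binding.

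Library totals ranged from 13184169 to 16528179 counts, and 3 counts in a library correspond to between 0.183 and 0.232 CPM, here counts scaled to a common library total with TMM factors. Lens fibre markers summed to between 36168 and 43364 CPM in a library and lens epithelium markers to between 2111 and 3143 CPM, while 26 photoreceptor markers summed to 26420 ± 99.5 CPM in the young group, 1574 ± 38.3 with age and 11539 ± 119 with EGCG (mean ± SD, n = 3 each). All 26 photoreceptor markers were called lower with age and all 26 higher with EGCG, so the groups also differed in the amount of retinal transcript. All 9 markers of the non-pigmented ciliary epithelium were detected in every group. In bulk tissue, fewer cells of a type and less RNA per cell cannot be told apart.

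Efemp1 had the highest level of the 10 members in all 3 groups. On FPKM, which is scaled to gene length and allows genes to be compared, its young control level was 30.7 ± 0.445, followed by Mfap2 at 8.91 ± 0.333 (SD, n = 3). Fbn1 (6.86 ± 0.407), Adamtsl4 (6.47 ± 0.120) and Ltbp2 (6.39 ± 0.194) came next with overlapping libraries. Adamts10 (4.88 ± 0.185), Emilin1 (4.60 ± 0.420) and Ltbp1 (4.47 ± 0.515) also overlapped one another. Fbn2, at 0.452 ± 0.053, had a level far under that of Fbn1, and the FPKM ratio of Fbn1 to Fbn2 was 15.4 ± 2.58 in the young libraries, 15.6 ± 7.05 in aged control and 17.9 ± 1.16 in EGCG libraries. In aged control capsule Ltbp2 took the second place at 9.20 ± 0.133 FPKM, above Mfap2 (8.11 ± 1.08), whose highest library (9.13) overlapped it, and Adamts10 dropped to 1.90 ± 0.153. In EGCG libraries the order was Efemp1 (26.3 ± 1.79), Ltbp2 (6.55 ± 0.340), Mfap2 (5.77 ± 0.705), Ltbp1 (4.78 ± 0.371), Emilin1 (4.45 ± 0.661), Fbn1 (4.24 ± 0.138), Adamtsl4 (4.14 ± 0.751), Adamts10 (1.46 ± 0.362) and Fbn2 (0.237 ± 0.020). Ltbp2 overlapped Mfap2 there, and Emilin1 overlapped Ltbp1, Fbn1 and Adamtsl4, while each Ltbp1 library lay above each Fbn1 library.

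**Figure D1:**
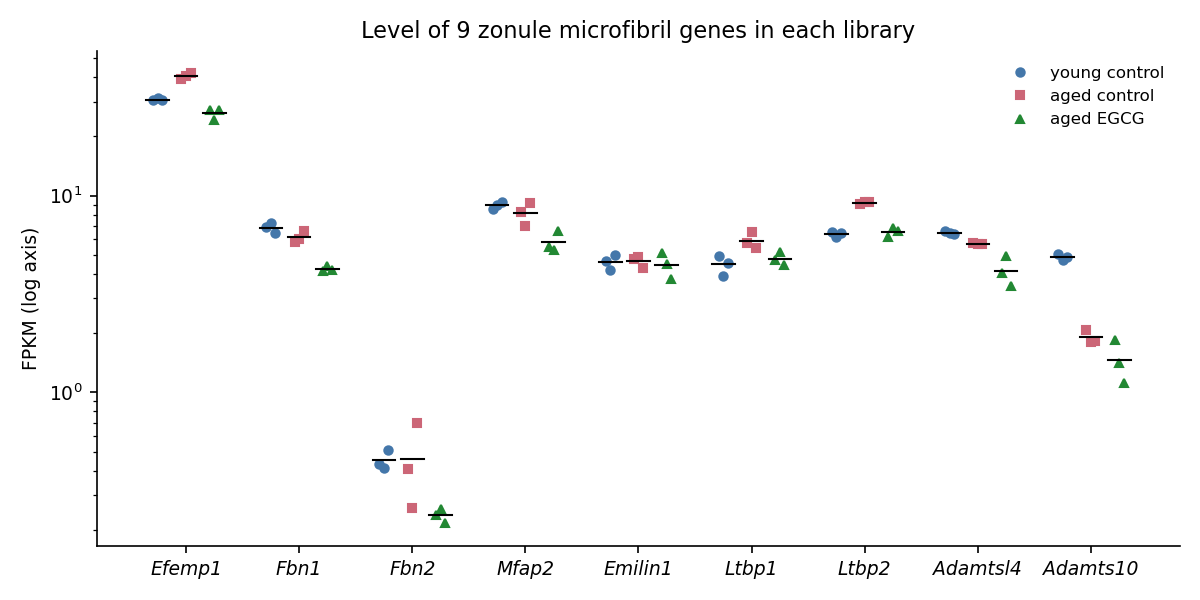
FPKM (log axis) of 9 zonule microfibril genes in each of the 9 libraries, as circles for young control, squares for aged control and triangles for aged EGCG, with a line at each group mean of 3. Efemp1 lies above all others, at 30.7, 40.5 and 26.3 FPKM, and Fbn2 lies below 1 FPKM throughout.

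The fibrillin genes were lower with EGCG and were not called changed with age in the main fit, but both were called higher with age once the gene length trend was removed. Fbn1 lies on chromosome 2, 125300594 to 125507993, minus strand (GENCODE M21, GRCm38). Its level was 61.8, 65.5 and 57.6 CPM in the young control libraries, 66.5, 67.9 and 72.2 in the aged control libraries and 42.8, 45.2 and 42.6 in the EGCG libraries. The EGCG libraries lay below all 6 others, and the aged control libraries just above the young ones. Against aged control Fbn1 fell 1.58-fold with EGCG (log2 fold change −0.66, SE 0.0757, edgeR adjusted p = 9.89e-10), and against young control it was 1.41-fold lower (log2 fold change −0.50, edgeR adjusted p = 1.52e-07), a call lost with the gene length trend removed (−0.07, adjusted p = 0.431). With age its log2 fold change was 0.16 (95% interval 0.01 to 0.31, edgeR adjusted p = 0.0509), which turned to −0.16 with library size only. It was called in 7 of the other settings tried, with an adjusted p between 6.2e-11 and 0.0495 in those. The largest rise among them, 0.60, came with the length trend removed. GENCODE places the gene Gm9913 on the opposite strand within Fbn1, and the sources used here do not say whether counting used strand, so reads of the pair cannot be told apart.

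Fbn2 was counted at 64, 62 and 78 reads in the young libraries, 71, 45 and 103 in aged control and 35, 40 and 30 in EGCG libraries. The aged control libraries spread widely, and the EGCG libraries were the lowest. Fbn2 fell 2.07-fold with EGCG against aged control (log2 fold change −1.05, SE 0.302, edgeR adjusted p = 0.00739), but without aged control replicate 3 the change was −0.64 with an adjusted p of 0.166. It was also lower in EGCG than in young control libraries (−0.73, edgeR adjusted p = 0.0327), a call lost when EGCG replicate 1 or 3 or young control replicate 1 or 3 was left out (adjusted p = 0.0543 to 0.116). The call was also lost scaled to lens fibre genes, with the length trend removed and on log2(FPKM + 1). With age the log2 fold change was 0.32 (95% interval −0.25 to 0.89), and it was −0.09 without aged control replicate 3. With the length trend removed it was 0.76 and was called (edgeR adjusted p = 0.0140).

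Efemp1, which encodes fibulin-3 (chromosome 11, 28853204 to 28926743, plus strand), rose with age and fell with EGCG to levels that overlapped the young ones. Its level was 59.0, 61.2 and 59.1 CPM in the young libraries, 97.4, 98.8 and 98.9 in aged control and 61.0, 53.9 and 60.6 in EGCG libraries. The aged control libraries lay above all 6 others, while young and EGCG libraries overlapped. The rise with age was 1.65-fold (log2 fold change 0.72, SE 0.0671, edgeR adjusted p = 3.72e-13) and the fall with EGCG 1.68-fold (−0.75, SE 0.0679, edgeR adjusted p = 1.02e-12). Its log2 fold change between EGCG and young capsule was −0.03 (95% interval −0.17 to 0.11, edgeR adjusted p = 0.706), and 0.05 scaled to lens fibre genes. With library size only, the length trend removed or the FPKM scales this difference was between −0.28 and −0.22 and was called.

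Among the microfibril-associated glycoproteins, Mfap2 was lower with EGCG and Mfap5 was barely detected. Mfap2 had 10.7, 11.2 and 11.5 CPM in the young libraries, 13.1, 10.9 and 13.9 in aged control and 7.83, 7.54 and 9.36 in EGCG libraries. Each EGCG library lay below the 6 others. The fall with EGCG against aged control was 1.53-fold (log2 fold change −0.62, SE 0.165, edgeR adjusted p = 0.00378). Against young control the log2 fold change was −0.43 (edgeR adjusted p = 0.0200), a call lost without EGCG replicate 1 or 2 or young control replicate 3 (adjusted p = 0.0610 to 0.0805). The call was also lost when libraries were scaled to lens fibre genes. The change with age was not called at 0.18 (95% interval −0.14 to 0.50), and was −0.14 with library size only. Mfap5 was counted 13 times in aged control replicate 1 and 0 times in the other two of that group. It had 0, 1 and 0 counts in young control and 2, 1 and 1 in EGCG libraries, so 1 library holds most of its counts and no fold is given.

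Emilin1, an elastin microfibril interface protein, was the tested member that EGCG did not move past the threshold. It had 15.9, 14.4 and 17.1 CPM in the young libraries, 20.9, 21 and 17.9 in aged control and 20.1, 17.5 and 14.8 in EGCG libraries. The aged control libraries lay above the young ones, and the EGCG libraries overlapped both groups. Its log2 fold change with EGCG was −0.19 (95% interval −0.45 to 0.07, edgeR adjusted p = 0.324), and 0.01 scaled to lens fibre genes. With age it was 0.34 (SE 0.129, edgeR adjusted p = 0.0191), a call lost without aged control replicate 1 or 2 or young control replicate 2 (adjusted p = 0.0562 to 0.102), with DESeq2 (adjusted p = 0.0718), scaled to lens fibre genes (adjusted p = 0.123), and with library size only (0.01, adjusted p = 0.928) or on either FPKM scale.

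The latent TGF-β binding proteins Ltbp1 and Ltbp2, relatives of the fibrillins, rose with age and fell with EGCG, on TMM-scaled CPM only partway to the young level. LTBP-1 holds latent TGF-β in the matrix, whereas LTBP-2 does not bind it and is needed for stable zonules. Ltbp2 (chromosome 12, 84783212 to 84876532, minus strand) had 51.1, 48.7 and 50.5 CPM in the young libraries, 90.8, 91.2 and 88.6 in aged control and 55.8, 61.7 and 58.9 in EGCG libraries. The 3 groups did not overlap on this scale, whereas on FPKM the EGCG libraries (6.19 to 6.87) overlapped the young ones (6.17 to 6.53). Ltbp2 rose 1.8-fold with age (log2 fold change 0.85, SE 0.0688, edgeR adjusted p = 4.26e-15), fell 1.53-fold with EGCG (−0.62, SE 0.0687, edgeR adjusted p = 4.29e-10) and stayed 1.17-fold above young control (0.23, edgeR adjusted p = 0.00412). This last call was lost with library size only (0.04, adjusted p = 0.676) and on either FPKM scale. The antisense gene D030025P21Rik overlaps Ltbp2 in GENCODE, so its reads could be shared if strand was not used.

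Ltbp1 (chromosome 17, 75005568 to 75392512, plus strand) had 34.1, 27.4 and 31.5 CPM in the young libraries, 51.2, 56.5 and 45.4 in aged control and 37.5, 41.1 and 35.1 in EGCG libraries. Again the groups were separate on this scale, with EGCG between the others. On FPKM the EGCG libraries (4.45 to 5.18) overlapped the young ones (3.92 to 4.94). The rise with age was 1.65-fold (log2 fold change 0.72, SE 0.0944, edgeR adjusted p = 4.30e-09) and the fall with EGCG 1.35-fold (−0.43, SE 0.0940, edgeR adjusted p = 3.91e-04). The fall missed the threshold when libraries were scaled to lens fibre genes (−0.23, adjusted p = 0.0506) and on log2(FPKM + 1) (−0.25, adjusted p = 0.0964). The remaining difference from young control was 0.29 (edgeR adjusted p = 0.0073), which was not called without EGCG replicate 2 or young control replicate 2 (adjusted p = 0.0561 and 0.0838). Nor was it called with library size only, with DESeq2 or on either FPKM scale.

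The ADAMTS superfamily members differed from each other with age. Adamts10, a secreted metalloproteinase family member (chromosome 17, 33524204 to 33553782, plus strand), had 23.1, 21.6 and 22.2 CPM in the young libraries, 12.2, 10.4 and 10.1 in aged control and 9.66, 7.40 and 5.83 in EGCG libraries. Each group lay below the one before it, and Adamts10 was the member that fell with age, 2.04-fold (log2 fold change −1.03, SE 0.148, edgeR adjusted p = 3.66e-08). EGCG libraries were 2.92-fold under young control (−1.54, SE 0.154, edgeR adjusted p = 3.85e-12). The fall from aged control to EGCG was 1.43-fold (−0.51, edgeR adjusted p = 0.0161), a call lost without aged control replicate 1 (adjusted p = 0.0868) or EGCG replicate 3 (adjusted p = 0.142), scaled to lens fibre genes (adjusted p = 0.128) and with library size only (adjusted p = 0.0742).

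Adamtsl4, an ADAMTS-like protein without protease activity (chromosome 3, 95676201 to 95687917, minus strand), had 24.4, 24.2 and 23.5 CPM in the young libraries, 27.2, 26.4 and 25.6 in aged control and 17.1, 21 and 14.6 in EGCG libraries. The EGCG libraries lay below the 6 others, and the aged control libraries above the young ones. Its fall with EGCG against aged control was 1.5-fold (log2 fold change −0.58, SE 0.118, edgeR adjusted p = 1.39e-04), and against young control 1.36-fold (−0.44, SE 0.118, edgeR adjusted p = 0.00106). With age it was 0.14 (95% interval −0.09 to 0.37) and not called, and −0.19 with library size only.

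Counted over the 9 tested members, EGCG against aged control had 8 lower and 0 higher, where 10.3% of all genes tested were called lower, 13.8% higher and 24.1% in either direction. In those same 8 members the 3 EGCG libraries all lay below the 3 aged control libraries, where 15.7% of all genes lay below, 17.8% above and 33.5% on either side. The median log2 fold change of the 9 was −0.62, beside −0.00 over all genes tested. The count was 6 scaled to lens fibre genes, and 5 on log2(FPKM + 1), where Fbn2, Ltbp1 and Adamts10 missed the threshold. It was 0 when libraries were scaled to markers of the ciliary epithelium, a scaling that raised all genes together and left 49 of 13711 called lower.

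Aged against young control had 4 members higher (Ltbp1, Ltbp2, Efemp1 and Emilin1), 1 lower (Adamts10) and 4 not called, where 35.4% of all genes tested were called higher, 33.8% lower and 69.2% in either direction, so the share of members called was close to the background. The aged libraries lay wholly above the young ones for 6 of the 9 and below for 1, where 36.9% of all genes lay above, 35.3% below and 72.1% on either side. The median was 0.32, beside 0.02 over all genes. Scaling by library size alone gave a median of 0.0012 and calls for 3 higher and 1 lower, with the median of all genes at −0.30. Removing the length trend gave 6 higher, with Fbn1 and Fbn2 added, and 1 lower. EGCG against young control had 2 higher (Ltbp1 and Ltbp2), 5 lower (Fbn1, Fbn2, Mfap2, Adamtsl4 and Adamts10) and 2 not called, where 32.3% of all genes were called higher, 31.4% lower and 63.6% in either direction. The same 2 lay wholly above and the same 5 wholly below, where 33.9% of all genes lay above, 34.4% below and 68.3% on either side. With library size only the split was 0 higher and 6 lower. The comparisons share libraries and are not independent of each other.

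**Figure D2:**
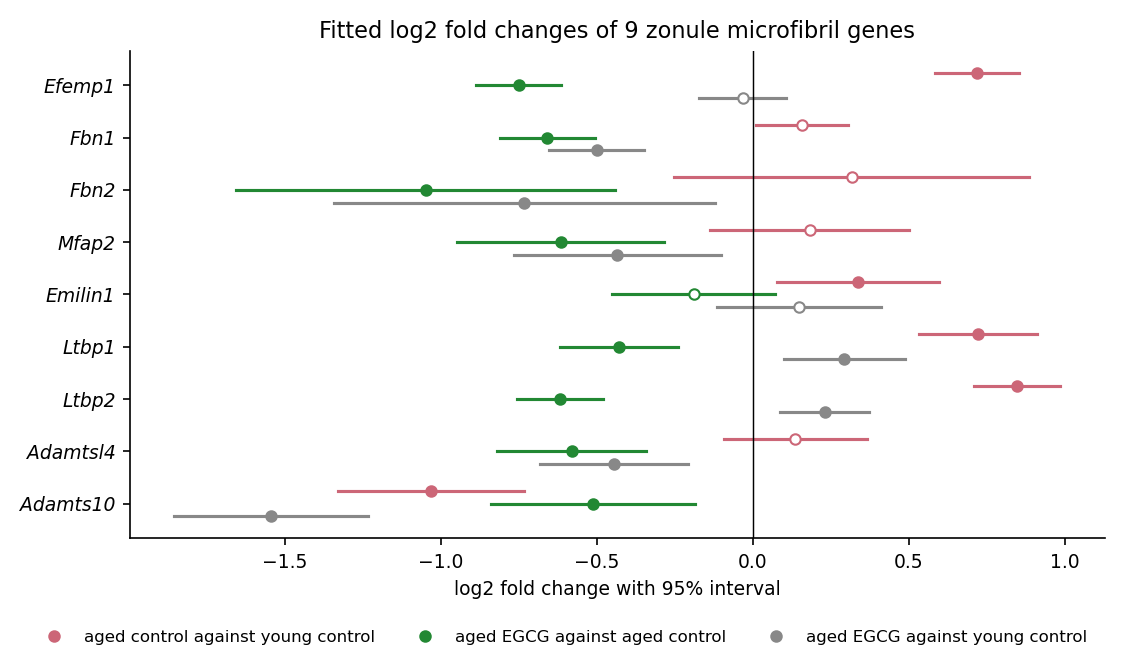
Fitted log2 fold change and 95% interval for 9 zonule microfibril genes in the 3 comparisons (edgeR, 3 libraries a group), with filled points for an adjusted p under 0.05. The green points for EGCG against aged control lie left of 0 for all 9 genes and are filled for 8, with Emilin1 open at −0.19.

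Ratios between members within a library do not depend on library scaling, but a trend with gene length was not removed from them. The length implied by the deposited values was 10126 bases for Fbn1, 2190 for Efemp1 and 1406 for Mfap2. Some of the ratios set young capsule apart from both aged groups. The FPKM ratio of Ltbp2 to Fbn1 was 0.946, 0.852 and 1.0 in the young libraries, 1.56, 1.54 and 1.41 in aged control and 1.49, 1.56 and 1.58 in EGCG libraries. The young libraries lay below the 6 aged ones, which overlapped. For Efemp1 to Fbn1 the young libraries also lay below the 6 aged ones, at 4.49 ± 0.223, 6.61 ± 0.241 and 6.22 ± 0.614. For Adamts10 to Fbn1 they lay above them, at 0.713 ± 0.058, 0.312 ± 0.043 and 0.345 ± 0.090. Adamtsl4 to Fbn1 was 0.946 ± 0.048, 0.930 ± 0.065 and 0.976 ± 0.147, and Mfap2 to Fbn1 1.3 ± 0.115, 1.32 ± 0.143 and 1.37 ± 0.195, each with overlapping groups. Emilin1 to Fbn1 was 0.675 ± 0.101 and 0.761 ± 0.097 in the control groups and 1.05 ± 0.164 in EGCG libraries, which lay above both. With 3 libraries against 3, a two-sided exact permutation test cannot go below p = 0.10, so these ratios are given as a description.

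**Figure D3:**
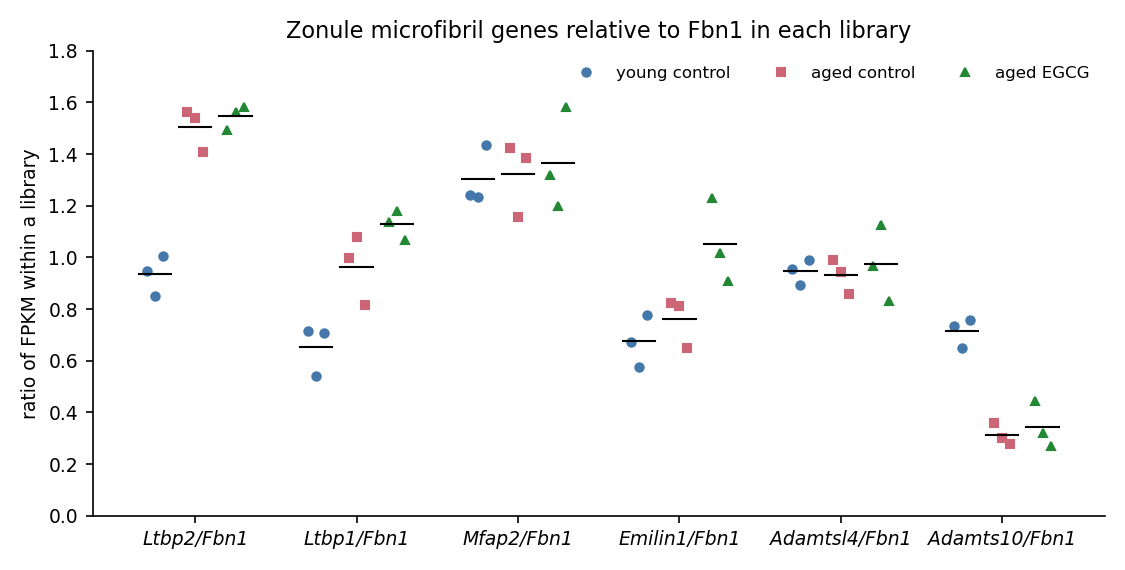
Ratio of the FPKM of 6 members to that of Fbn1 within each library, with a line at each group mean of 3. Ltbp2/Fbn1 is higher in both aged groups (means 1.5 and 1.55) than in young control (0.934), Adamts10/Fbn1 is lower (0.312 and 0.345 against 0.713), and Adamtsl4/Fbn1 and Mfap2/Fbn1 overlap in all groups.

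Among other microfibril and elastic fibre genes, those called with EGCG were lower. Of 14 such genes 8 were called lower and 0 higher in EGCG against aged control (median −0.52), beside 10.3% and 13.8% of all genes. The age comparison called 5 up and 5 down (median −0.13), close to the 69.2% called over all genes. Fbln1, fibulin-1, rose 1.51-fold with age and fell 1.53-fold with EGCG, and Mfap4, a microfibril-associated glycoprotein of elastic fibres, rose 2.07-fold and fell 1.74-fold. Efemp2, fibulin-4, rose 2.29-fold with age and had a log2 fold change of −0.14 with EGCG (adjusted p = 0.327). Vcan, the proteoglycan versican, and Ltbp3 fell 1.74-fold and 1.33-fold with EGCG. Fn1, fibronectin, on which microfibrils assemble, fell 2.89-fold with age and a further 2.18-fold with EGCG. Eln, elastin itself, was at 7.31, 3.61 and 2.64 CPM in the young libraries, aged control and EGCG libraries, a fall with age (edgeR adjusted p = 6.54e-04).

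Of 20 tested genes for processing and assembly 8 were higher and 6 lower with age, close to the share over all genes, and EGCG against aged control called 6 down and 0 up (median −0.21), beside 10.3% and 13.8%. Loxl2, a lysyl oxidase that cross-links collagen and elastin, rose 1.61-fold with age and fell 1.62-fold with EGCG. Asph, which hydroxylates aspartate in EGF-like domains, rose 1.31-fold and fell 1.27-fold, and B3glct, which extends O-fucose on thrombospondin repeats of ADAMTS proteins, fell 1.45-fold with EGCG. Adamtsl2 and Adamts6 fell 2.84-fold and 1.64-fold with age. Lox was called lower with EGCG (edgeR adjusted p = 0.00106) on 14, 12 and 24 counts in aged control and 1, 1 and 2 in EGCG libraries, so the size of its fall is not given.

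Growth factors held by microfibrils, their receptors and integrins had 9 of 16 tested genes higher and 3 lower with age (median 0.53), where 35.4% of all genes were higher and 33.8% lower. With EGCG 6 were lower and 0 higher (median −0.18), beside 10.3% and 13.8% of all genes. Bmp2, a bone morphogenetic protein, rose 3.81-fold with age and fell 2.30-fold with EGCG. Tgfb3 rose 1.93-fold with age, and the integrin genes Itgb5 and Itgb1 rose 1.69-fold and 1.55-fold. With EGCG Itgav, the αV integrin that binds RGD sites of fibrillin, fell 1.32-fold, Bmp7 1.36-fold and Tgfb2 1.18-fold. Of 8 other genes whose mutation displaces the lens, 6 were higher and 0 lower with age, where 69.2% of all genes were called in either direction. With EGCG 4 of them were lower and 0 higher, beside 10.3% and 13.8%. Asph and Adamts17 are among these 8 and were also counted among the genes for processing and assembly. Mocs2 and Mocs1, of molybdenum cofactor synthesis, rose 1.40-fold and 1.82-fold with age, and Col18a1, which encodes collagen XVIII, rose 1.37-fold and then fell 1.42-fold. P3h2, a prolyl hydroxylase of basement membrane collagen, fell 1.54-fold with EGCG (edgeR adjusted p = 0.0456).

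Markers of the non-pigmented ciliary epithelium had a median change of the same sign as the zonule genes with age and with EGCG against aged control. For EGCG against young control the signs differed, with medians of 0.20 for these markers and −0.43 for the zonule genes. EGCG against aged control called 7 of 9 down and 0 up (median −0.64), beside 10.3% and 13.8% of all genes tested. The age comparison called 6 up and 1 down (median 0.65), where 35.4% of all genes were called higher, 33.8% lower and 69.2% in either direction. Optc, opticin, a proteoglycan secreted into the vitreous by this epithelium, had 61.5, 62.0 and 63.0 CPM in the young libraries, 166, 185 and 185 in aged control and 106, 89.6 and 97.4 in EGCG libraries. The summed level of the 9 markers was 219 to 231 CPM in the young libraries, 371 to 395 in aged control and 224 to 251 in EGCG libraries, next to 278 to 284, 381 to 386 and 244 to 258 CPM for the 10 zonule genes. The rise of the zonule sum with age rests mainly on Ltbp2, Efemp1 and Ltbp1. Without Optc the 8 other ciliary markers summed to 163 ± 6.89, 206 ± 4.12 and 137 ± 6.37 CPM, and the zonule genes stood to this sum in a ratio of 1.72 ± 0.071, 1.87 ± 0.025 and 1.84 ± 0.083.

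When the libraries were scaled to the 9 ciliary markers, an alternative chosen after seeing the data, 0 of 9 zonule genes were called lower with EGCG against aged control and 2 were called higher, Ltbp1 (0.29) and Emilin1 (0.52), with a median of 0.10. This scaling shifted all genes together, with 11343 called higher and 49 lower over the table and a median of 0.71, and the members' median lay below that of all genes as it did with TMM factors (−0.62 beside −0.00). Scaled without Optc, 0 were lower and Emilin1 was higher (0.39, edgeR adjusted p = 0.00764), with a median of −0.03, where 10604 of all genes were called up and 81 down (median 0.58). In that scaling with age Ltbp1, Ltbp2 and Efemp1 remained higher (0.38, 0.51 and 0.38) and Adamts10 lower (−1.37), where 2785 genes were higher and 6454 lower. With Optc included 0 were higher and 5 were lower, where 872 genes were higher and 9553 lower. Adamts10 was lower with age in both (−1.80 with Optc). Whether the amount of ciliary tissue in the samples set the change of the zonule genes was not tested.

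Other marker lists varied in their pattern, and some had the order of the zonule genes. Lens fibre markers were at 108% ± 2.32 of the young control mean in aged control and at 94.3% ± 1.84 in EGCG libraries. Of these 17 markers 9 were called lower and 0 higher with EGCG against aged control, beside 10.3% and 13.8% of all genes tested. Against young control 9 were called higher and 5 lower with EGCG (median 0.25), where 32.3% of all genes were higher and 31.4% lower. The fall of the sum below young control rests on Bfsp1, Lgsn and Lenep, at 8078, 5263 and 1641 CPM with EGCG against 10022, 8075 and 2732. The same 17 genes set the lens fibre scale. Pigment cell markers summed to 235 to 244 CPM in the young libraries, 284 to 295 in aged control and 188 to 196 in EGCG libraries, the order of the zonule genes. The rise of this sum with age rests on Dct, which had means of 117, 169 and 101 CPM in the same order of groups. Of the 9 markers, 4 rose and 3 fell with age, and 3 fell and 1 rose with EGCG. Stromal fibroblast markers summed to 149 ± 4.02 CPM in young control and to 102 ± 1.61 and 104 ± 2.87 in the aged groups, where Lum was at or under 1.08 CPM in every group mean. Thy1, also a marker of retinal ganglion cells, went from 31.7 to 4.43 and 26.1 CPM, and without it the sums were 117 ± 1.72, 97.5 ± 1.5 and 77.6 ± 1.13 CPM. With EGCG 2 of the 9 fell (Col1a2 and Col6a2) and 1 rose (Thy1). Lens epithelium markers were at 144% ± 4.13 of the young control mean in aged control and at 137% ± 2.0 in EGCG libraries, a sum in which Sfrp1 alone had 827, 1514 and 1543 CPM. Without Sfrp1 they summed to 1290 ± 2.46, 1535 ± 49.0 and 1356 ± 22.9 CPM, also highest in aged control, and with EGCG 4 of the 10 fell (Foxe3, Cdh1, Pax6 and Gja1) and 1 rose. Of 10 endothelial and mural markers 7 were lower and 2 (Acta2 and Pdgfrb) higher with age, and 4 were lower and 1 higher with EGCG. Their summed level, most of it Acta2, was nonetheless 509 ± 12.6 CPM in the young group, 901 ± 26.8 with age and 661 ± 17.2 with EGCG, and Acta2 itself, smooth muscle actin, was at 292, 739 and 524 CPM. The other markers of that list summed to 216 ± 6.04, 162 ± 6.23 and 137 ± 3.19 CPM. The part of these cell types in the result was not tested.

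**Figure D4:**
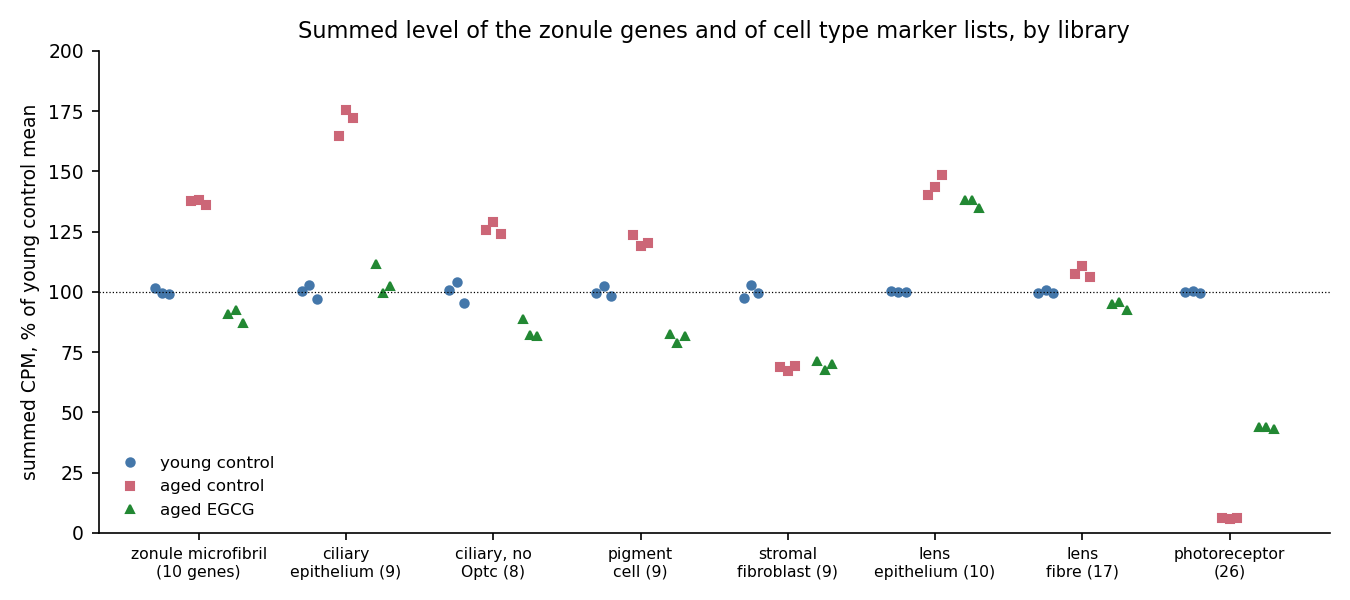
Summed CPM of the 10 zonule microfibril genes and of cell type marker lists in each library, as a percentage of the young control mean (dotted line at 100). The zonule genes (137% in aged control, 90.1% in EGCG), ciliary markers (171% and 104%), pigment cell markers (121% and 80.9%) and lens fibre markers (108% and 94.3%) were highest in aged control and lower with EGCG. Ciliary markers without Optc were at 126% and 84.1%, and the rise of the zonule sum with age rests mainly on Ltbp2, Efemp1 and Ltbp1. The rise of the pigment cell sum with age rests on Dct, and the fall of the lens fibre sum below 100% with EGCG on Bfsp1, Lgsn and Lenep. Lens epithelium markers were at 144% and 137%. Stromal markers (68.4% and 69.6%) were low in both aged groups, and photoreceptor markers (5.96% and 43.7%) were lowest in aged control.

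Across the 9 libraries the genes with the pattern nearest to that of Fbn1, among 10521 with a mean of at least 5 CPM, were Reln, Tns1 and Abca5. The measure was the root mean square distance between log2(CPM + 1) profiles, each centred on its own mean, and it was 0.0665, 0.0699 and 0.0701. Reln, the secreted glycoprotein reelin, had means of 119, 138 and 82.2 CPM in the young libraries, aged control and EGCG libraries. Among the genes nearest to Efemp1 were Necab1 (0.0750), at 56.9, 85.6 and 53.5 CPM, and Tyrp1 (0.0840), a melanin synthesis enzyme that is also on the pigment cell list, at 27.4, 43.9 and 28.1 CPM. Among the members themselves the closest pairs were Fbn1 with Adamtsl4 (0.117), Ltbp1 with Ltbp2 (0.126), Fbn1 with Mfap2 (0.132) and Ltbp2 with Efemp1 (0.135).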

How the data were processed

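Per the labels' protocols, libraries were made with a SMARTER mRNA-Seq kit, and per the submitters' processing notes the build was GRCm38 (mm10). Aligner, counter and strand setting were not given in the sources used here. Whole-number read counts and FPKM values per gene symbol were deposited by the authors. Dividing counts by gene length and library total gave the deposited FPKM within 0.01% in all 138164 nonzero entries.

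Counts were fitted with the quasi-likelihood test of edgeR 4.0.16 (R 4.3.3; limma 3.58.1 and DESeq2 1.42.0 for alternatives) over all 9 libraries, with group means, TMM factors and filterByExpr. Tests are two-sided, adjusted by Benjamini-Hochberg over 13711 genes and called under 0.05. The biological coefficient of variation was 7.89%. The SE is the log2 fold change over the root of F. Intervals cover spread between libraries and counting error. Marker and wider lists were fixed by symbol, and from each wider list up to 4 called genes with the smallest p are named per comparison. Eln, Efemp2 and Fn1 under EGCG and the genes given from cell type lists were named after their values were seen. The members and lists were chosen with earlier results of these data known. The test was checked on simulated counts. A further gene near Efemp1 in pattern is not reported here.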

Additional observations from a re-analysis of the deposited data

How the results depend on the processing

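Of the members' fold changes recomputed under the alternatives set out at the start, 167 of 180 for EGCG against aged control, 151 of 180 with age and 150 of 180 for EGCG against young control kept direction and side of the threshold. The scalings to ciliary markers, with and without Optc, are not in this tally, and under both 0 members were called lower with EGCG against aged control. Low counts limit Fbn2, and Mfap5 most of all. No cause of a change below was tested.

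Leaving out 1 library gave 7 to 8 members lower and 0 higher for EGCG against aged control, 3 to 5 higher and 1 lower with age, and 1 to 2 higher and 3 to 5 lower for EGCG against young control. The replicate numbers do not pair the samples (same-numbered libraries correlated at −0.020 to 0.030 in their deviations, other pairs at −0.021 to 0.036), and the replicate block gave the same counts as without it (4 higher and 1 lower, 0 and 8, 2 and 5). For EGCG against aged control, 5 members were lower on log2(FPKM + 1) and 5 on log2(FPKM + 0.1). For EGCG against young control, 0 were higher with library size only and on both FPKM scales, 1 with DESeq2, and 3 were lower scaled to lens fibre genes. Scaled to ciliary markers (added after seeing the data), 0 were higher and 5 lower with age, 2 higher and 0 lower with EGCG against aged control, and 0 higher against young control. Over all genes that scaling gave 872 higher and 9553 lower with age (median −0.75) and 11343 and 49 with EGCG against aged control (median 0.71). Without Optc the members' counts were 1 higher and 0 lower with EGCG against aged control, and 4 higher and 2 lower against young control.

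Changes with age that turned in sign were, with library size only, Fbn1 (−0.16), Mfap2 (−0.14) and Adamtsl4 (−0.19). On log2(FPKM + 1) they were Fbn1 (−0.14), Fbn2 (−0.0062), Mfap2 (−0.13) and Adamtsl4 (−0.16), and on log2(FPKM + 0.1) Fbn1 (−0.16), Fbn2 (−0.062), Mfap2 (−0.14) and Adamtsl4 (−0.18). Mfap2 was −0.21 with the length trend removed and Fbn2 −0.088 without aged control replicate 3, in a range of −0.088 to 0.61 over the libraries left out. Scaled to ciliary markers they were Fbn1 (−0.61), Fbn2 (−0.45), Ltbp1 (−0.051), Efemp1 (−0.052), Mfap2 (−0.59), Adamtsl4 (−0.63) and Emilin1 (−0.44), and without Optc Fbn1 (−0.18), Fbn2 (−0.016), Mfap2 (−0.15), Adamtsl4 (−0.20) and Emilin1 (−0.0028). For EGCG against aged control Emilin1 was 0.0068 scaled to lens fibre genes. Scaled to ciliary markers the turned values were Fbn1 (0.055), Ltbp1 (0.29), Ltbp2 (0.10), Mfap2 (0.10), Adamtsl4 (0.13), Adamts10 (0.19) and Emilin1 (0.52), and without Optc Ltbp1 (0.16), Adamtsl4 (0.0058), Adamts10 (0.068) and Emilin1 (0.39). For EGCG against young control Efemp1 was 0.054 scaled to lens fibre genes, 0.030 without EGCG replicate 2 (range −0.057 to 0.030 over the libraries left out) and 0.22 scaled to ciliary markers without Optc. Emilin1 was −0.047 with library size only, −0.044 on log2(FPKM + 1) and −0.053 on log2(FPKM + 0.1).

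Over all genes, the EGCG against aged control split of 1894 higher and 1406 lower became 3086 and 611 by library size alone (median of all genes 0.12), and 4419 and 433 on the lens fibre scale (median 0.19). With age, 4847 and 4635 became 2939 and 6442 by library size alone.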
